A study of Mus musculus with 65 samples.

Results

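The genes described here are 10 inflammatory signals of the mouse retina, the CC chemokines Ccl2, Ccl3, Ccl4, Ccl5 and Ccl12, the CXC chemokines Cxcl1 and Cxcl10, and the cytokines Il1b, Il6 and Tnf. They were chosen by symbol, and all 10 were found among the 50686 genes of the count table. Bulk RNA of the retina was sequenced from 65 adult C57BL/6J mice in 16 groups. The control group CD (n = 5, of which 1 mouse is labelled 2M in place of a replicate number and is called replicate 2M here) received control diet, and the depletion groups DEP2, DEP5, DEP7, DEP10, DEP14 and DEP21 were fed PLX5622, an inhibitor of CSF1R that removes microglia, for the number of days in their name (n = 4 each, but n = 3 in DEP5). The repopulation groups REPOP3, REPOP5, REPOP7, REPOP10, REPOP14 and REPOP21 had been returned to control diet for the number of days in their name, and REPOP60 for 2 months (n = 4 each, but n = 6 in REPOP7). LPSCD (n = 3) received lipopolysaccharide (LPS) on control diet, and LPSREPOP (n = 4) received PLX5622 and LPS. The labels give neither a repopulation time nor the interval after LPS for LPSREPOP, and no interval after LPS for LPSCD, which limits both as models of a time course of inflammation. Library totals lay between 5106429 and 8760443 counts, with a median of 7944665. The titles of 39 mice end in RE and those of 26 in re. All 7 LPS mice and all REPOP60 mice are re, all DEP5 mice are RE, CD holds 3 RE and 2 re mice, REPOP7 holds 3 of each, and the remaining groups hold 3 RE mice and 1 re mouse each. The markers of the labelled tissue were present, as 8 rod and cone markers summed to 50800 ± 5170 CPM (SD, n = 5) in CD. CPM is a gene's reads scaled to a library of 1000000 counts.

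Chemokines are small secreted proteins that draw leukocytes along a gradient and bind G protein-coupled receptors on the responding cell. CC chemokines act mainly on monocytes, macrophages and T cells, whereas CXC chemokines with the ELR motif, such as Cxcl1, act on neutrophils, and Cxcl10 is an interferon-induced ligand for activated T cells. Il1b, Il6 and Tnf are the classical proinflammatory cytokines, which myeloid cells produce after Toll-like receptors sense microbial products such as LPS, largely through the transcription factor NF-kB. Microglia are the resident macrophages of the retina and a main source of these signals there.

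The upstream regions of 3 genes are shown because they hold the consensus motif of NF-kB, the factor through which LPS is known to act. RefSeq promoter windows (GRCm38.p6) were held for 7 of the 10 genes, namely Ccl3, Ccl12, Cxcl1, Cxcl10, Il1b, Il6 and Tnf. In the 250 bases before the annotated start, searched on both strands, the NF-kB consensus was matched in Cxcl1, Cxcl10 and Il6, and 3.9% of 32851 windows of this length held it. Counting the last base before the start as -1, the matches begin at -71 and -70 in Cxcl1, where they overlap, at -159 and -103 in Cxcl10, and at -44 in Il6. The letters TATAAA were found in Ccl12, Il1b and Tnf, and in 12.4% of all windows. A match is a run of letters and not a measured site. The 180 bases before each start are given 5′ to 3′ on the strand of the gene, with the NF-kB matches in capitals. The windows are chr5:90891065-90891244 (plus strand) for Cxcl1, chr5:92348890-92349069 (minus strand) for Cxcl10 and chr5:30012934-30013113 (plus strand) for Il6.
Cxcl1: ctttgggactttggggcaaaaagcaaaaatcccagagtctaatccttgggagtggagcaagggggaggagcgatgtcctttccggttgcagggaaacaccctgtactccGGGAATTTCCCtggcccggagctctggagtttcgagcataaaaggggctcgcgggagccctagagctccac
Cxcl10: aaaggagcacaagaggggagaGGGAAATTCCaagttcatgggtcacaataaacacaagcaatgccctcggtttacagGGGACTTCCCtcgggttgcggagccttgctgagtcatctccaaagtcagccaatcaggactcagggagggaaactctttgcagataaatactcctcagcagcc
Il6: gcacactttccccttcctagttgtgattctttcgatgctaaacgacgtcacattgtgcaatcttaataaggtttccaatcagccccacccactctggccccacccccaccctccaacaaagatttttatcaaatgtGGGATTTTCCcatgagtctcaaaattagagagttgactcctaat

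All 10 genes lay near the limit of detection. Of the 650 values of a gene in a mouse, 505 (77.7%) were counts of 0, 98 were counts of 1 and 9 were above 3, the highest being 11. The 10 genes together held 239 counts in the 65 mice, and none had a mean above 1 CPM, whereas 15882 genes of the table did. A count of 3 was taken as the floor, and depending on library size it stands for 0.342 to 0.587 CPM. For a group without any count, the same 3 counts allow a level of up to 0.075 CPM in CD, 0.13 CPM in LPSCD and 0.0991 CPM in LPSREPOP. These limits and the Poisson intervals below cover counting error only. A gene at 0 is therefore not detectable at this depth, which does not show that it is absent.

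**Figure D1:**
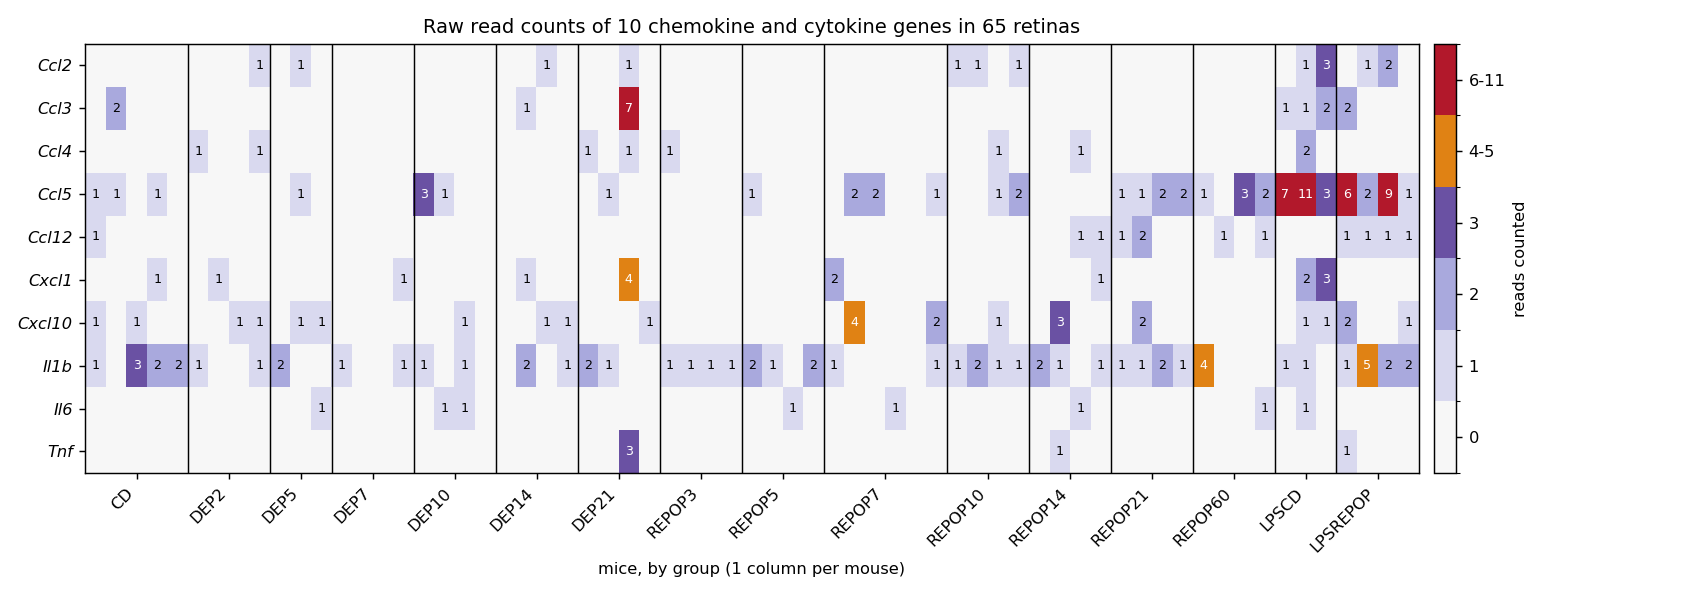
Raw read counts of the 10 genes (rows) in each of the 65 mice (columns, grouped), where blank cells are counts of 0. Most cells are blank, Ccl5 is filled in all 7 LPS mice with counts from 1 to 11, and 1 mouse of DEP21 carries 7 counts of Ccl3, 4 of Cxcl1 and 3 of Tnf.

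Summed over the 10 genes, the 58 mice without LPS held between 0 and 16 counts (median 2), and the 7 LPS mice held between 5 and 20 (median 12). In LPSCD the sums were 9, 20 and 12, and in LPSREPOP they were 13, 9, 14 and 5. The groups overlapped, because 5 mice without LPS reached the lowest LPS value of 5, and DEP21 replicate 3 reached 16. Without that mouse the highest value among mice without LPS was 6. By group, CD held 17 counts, and the depletion groups in order of days held 8, 7, 3, 9, 8 and 22. The repopulation groups held 5, 7, 16, 13, 13, 16 and 13 in the same order. Both LPS groups held 41 counts, in 3 and 4 mice. Ccl5 supplied 47.6% of the counts of the LPS mice, and Il1b supplied 32.5% of the 157 counts of the other mice.

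**Figure D2:**
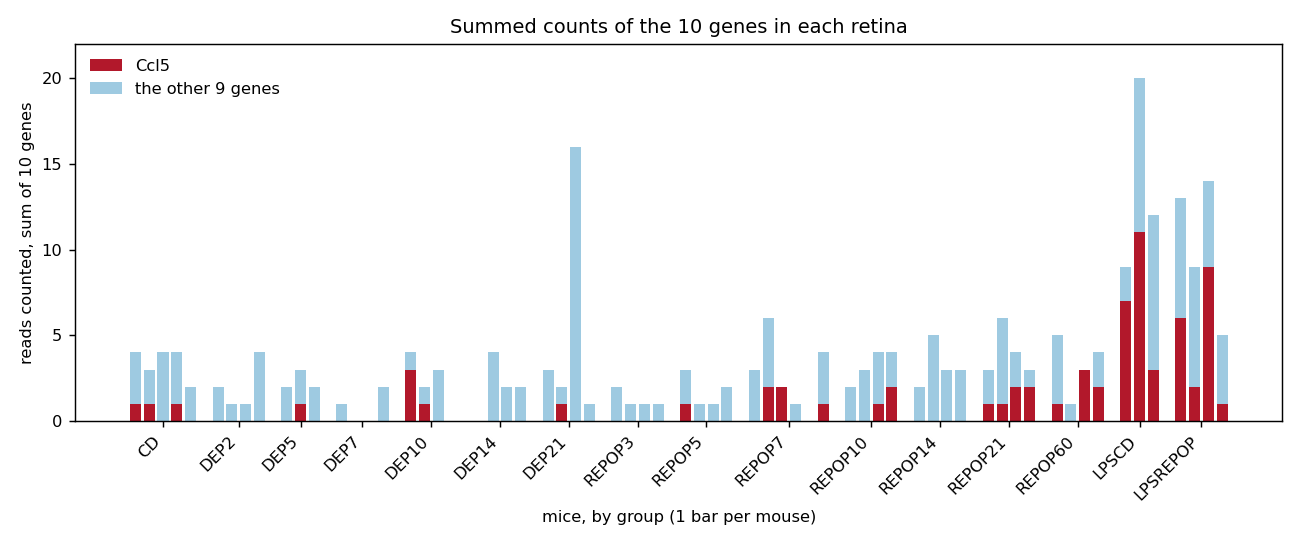
Summed counts of the 10 genes in each mouse, with the Ccl5 counts in red at the base of each bar and the other 9 genes in blue. The LPS mice reach 5 to 20 counts, the DEP21 mouse with 16 counts has no Ccl5, and no other mouse without LPS exceeds 6.

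Ccl5 (RANTES, ENSMUSG00000035042, chr11:83525778-83530518, minus strand), a chemokine that attracts T cells and monocytes, was the gene with the clearest LPS values. Its counts in LPSCD were 7, 11 and 3, and in LPSREPOP they were 6, 2, 9 and 1. In CD they were 1, 1, 0, 1 and 0, and in REPOP60 they were 1, 0, 3 and 2. Every LPS mouse carried Ccl5 reads and 4 of 7 lay above the floor of 3, whereas 20 of 58 mice without LPS carried any read and none exceeded 3. The highest value without LPS, 3 counts, occurred in 2 mice and equalled or exceeded that of the 3 lowest LPS mice, so the counts overlapped. Expressed as CPM, Ccl5 was 0.915 ± 0.527 (SD, n = 3) in LPSCD and 0.592 ± 0.483 (SD, n = 4) in LPSREPOP, against 0.0733 ± 0.0672 (SD, n = 5) in CD and 0.2 ± 0.171 (SD, n = 4) in REPOP60. Pooled over mice, the level was 0.731 CPM with LPS (exact 95% Poisson interval 0.52 to 1) and 0.065 CPM without (0.0438 to 0.0927). In the remaining groups no Ccl5 read was counted in DEP2, DEP7, DEP14, REPOP3 and REPOP14. The group sums were 1 in DEP5, 4 in DEP10, 1 in DEP21, 1 in REPOP5, 5 in REPOP7, 3 in REPOP10 and 6 in REPOP21, where all 4 mice were positive (1, 1, 2 and 2 counts).

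The comparison of LPSCD with CD asked how the retina with resident microglia responded to LPS. Ccl5 differed by a log2 fold change of 3.32 (SE 0.73) in edgeR's quasi-likelihood test, with FDR = 0.0333 (Benjamini-Hochberg over 23606 genes). It therefore missed the threshold of the study, an FDR under 0.01 with an absolute log2 fold change above 1. None of the 6 members tested there passed it, and 39 genes did (0.165% of those tested, 38 of them higher). At an unadjusted edgeR p under 0.05 stood 3 members, Ccl5, Ccl2 and Cxcl1, and of these Ccl2 and Cxcl1 were counted in enough mice to be tested in LPSCD only, where they were higher, so that their p is no support for a difference. Ccl3 and Cxcl10 also entered the test through LPSCD alone. No member was called by DESeq2, which gave Ccl5 no adjusted p. At an FDR under 0.05 Ccl5 was among 574 genes (2.43%). It also passed the stricter threshold with edgeR's likelihood ratio test (FDR = 0.00117), where 313 genes (1.33%) did, without a gene filter (FDR = 0.00412, 1.06% of genes) and with all 16 groups in 1 edgeR fit (FDR = 0.0075, 0.989% of genes). With the title suffix added to the fit of all 16 groups it did not pass, at a log2 fold change of 2.91 (edgeR FDR = 0.0338). The title suffix differed between the groups, and with it as a covariate the edgeR value was 3.48 with FDR = 0.284. Among re mice alone the edgeR value was 3.47 with FDR = 0.122, where CD is represented by 2 mice with 1 Ccl5 count between them. Without LPSCD replicate 2, the mouse with 11 counts, the edgeR value was 2.85 with FDR = 0.157, and without LPSCD replicate 3 it was 3.69 with FDR = 0.104. The pooled level without LPS was 0.113 CPM in re mice (16 counts, n = 19) and 0.0437 CPM in RE mice (14 counts, n = 39).

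LPSREPOP was also compared with REPOP60, the unchallenged group with the longest repopulation, and with LPSCD. As the repopulation time of LPSREPOP is not labelled, REPOP60 is not known to match it in time. Ccl5 in LPSREPOP differed from REPOP60, where all mice share the suffix, by a log2 fold change of 1.48 (SE 0.74, edgeR FDR = 0.371, n = 4 and 4). Without LPSREPOP replicate 3 it was 0.93 and without REPOP60 replicate 3 it was 2.01. None of the 5 members tested passed or had an edgeR p under 0.05, DESeq2 gave none of the 5 an adjusted p, and 109 of 24927 genes passed (0.437%). Of these 5, Ccl2, Cxcl10 and Il1b entered the test through LPSREPOP alone, so the direction of the Ccl2 and Cxcl10 values was set by the filter. For Il1b the filter favoured a higher value in LPSREPOP without fixing it, as REPOP60 replicate 1 held 4 counts. Between LPSREPOP and LPSCD the Ccl5 value was -0.61 (SE 0.64, edgeR FDR = 0.791). It was -0.13 without LPSCD replicate 2 and -1.16 without LPSREPOP replicate 3. Of the 7 members tested, Cxcl1 and Ccl12 had an unadjusted edgeR p under 0.05, but each entered the test through the group where it was higher, since Cxcl1 had no count in LPSREPOP and Ccl12 none in LPSCD. None of the 7 members passed, and 0 of 24500 genes did (0.0%; 1973 had an unadjusted edgeR p under 0.05, and DESeq2 called 0). The difference between the LPS effects, tested as an interaction in re mice, was -1.99 for Ccl5 (SE 1.54, edgeR FDR = 0.887). There 0 of 27025 genes passed (0.0%; 1522 had an unadjusted edgeR p under 0.05). These SEs leave room for a Ccl5 difference between the LPS groups in either direction, so that they were not shown to respond alike.

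The deposited FPKM values, which scale reads by transcript length and library size and so allow levels of genes to be compared per length, separated the LPS mice more fully. Ccl5 was 1.88, 2.98 and 1.52 FPKM in LPSCD and 1.11, 0.84, 2.08 and 0.538 FPKM in LPSREPOP. The highest of the 58 mice without LPS held 0.366 FPKM and 49 were listed at 0, so that no mouse without LPS reached the lowest LPS mouse. How many other genes separate these mice as fully was not counted, so the separation alone does not set Ccl5 apart. On log2(FPKM + 0.5) the difference was 2.31 between LPSCD and CD (exact permutation p = 0.0357, adjusted over 3 comparisons 0.0536) and 1.37 between LPSREPOP and REPOP60 (exact permutation p = 0.0286, adjusted 0.0536). Both p-values are the smallest that these group sizes allow. Between the LPS groups the difference was -0.72 (exact permutation p = 0.171). This measure was chosen after the data were seen, and StringTie and HTSeq did not always see the same reads. Of the 650 values, 25 had an FPKM above 0 with a count of 0, and 87 had a count above 0 with an FPKM of 0. Averaged over the 7 LPS mice, Ccl5 stood at 1.56 ± 0.832 FPKM (SD), above Ccl2 (0.0894 ± 0.152), Cxcl10 (0.071 ± 0.0494), Il1b (0.0528 ± 0.105), Cxcl1 (0.0367 ± 0.0545) and Ccl3 (0.0225 ± 0.0596). The last 5 do not differ beyond their spread, and Ccl4, Ccl12, Il6 and Tnf were listed at 0 FPKM in all LPS mice.

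**Figure D3:**
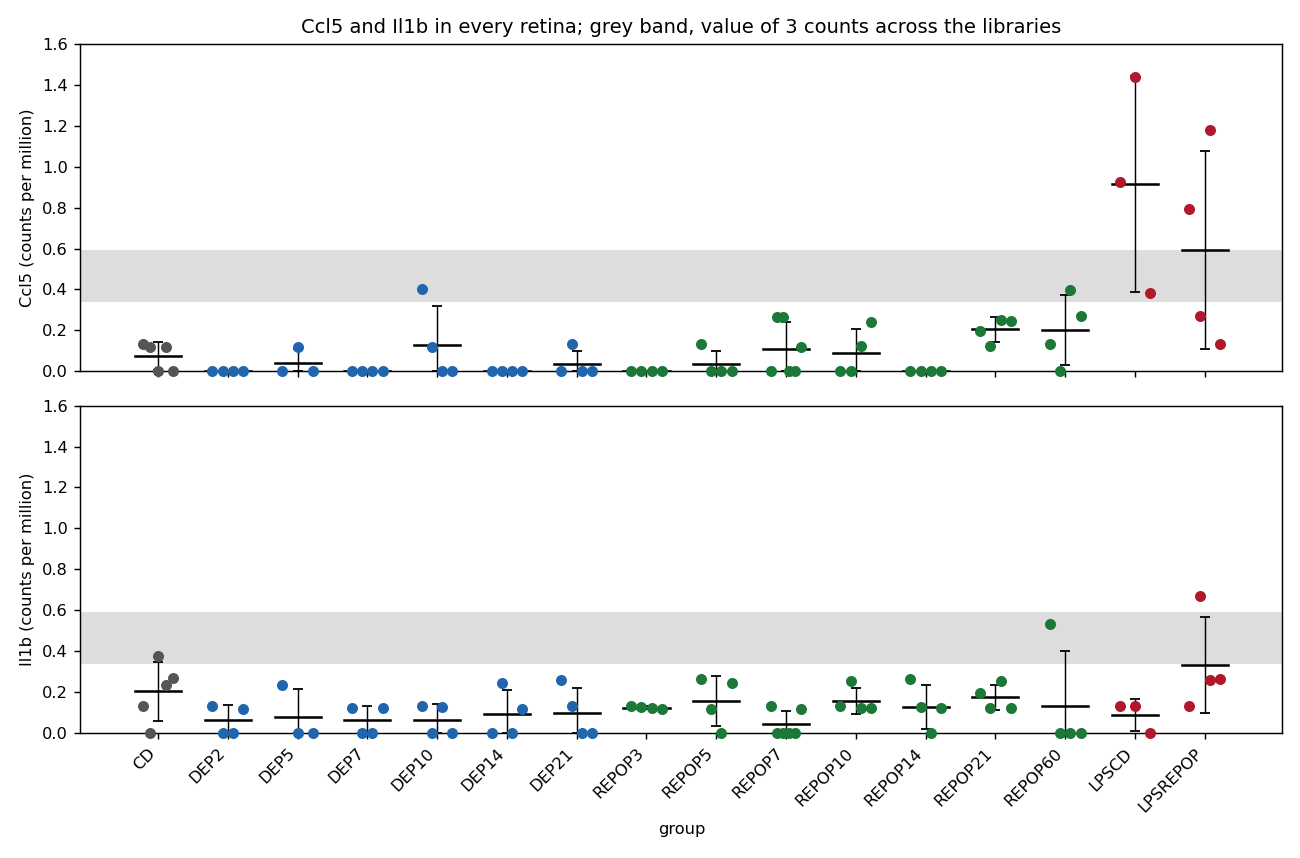
Ccl5 (top) and Il1b (bottom) in CPM for each mouse (points), with group means (bars) and SD (whiskers, cut off at 0). The grey band spans 3 counts in the largest to the smallest library, 4 of the 7 LPS mice lie above 3 counts of Ccl5, and Il1b shows no such set of points.

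Ccl2 (MCP-1, ENSMUSG00000035385, chr11:82035571-82037453, plus strand) and Ccl12 (MCP-5, ENSMUSG00000035352, chr11:82101845-82103400, plus strand) are ligands of Ccr2 and attract monocytes. Ccl2 was counted 0, 1 and 3 times in LPSCD and 0, 1, 2 and 0 times in LPSREPOP, and not at all in the 5 CD mice or the 4 REPOP60 mice. Over the group, LPSCD held 4 counts (0.173 CPM, exact 95% Poisson interval 0.0473 to 0.444), and the interval reaches below the 0.075 CPM that 3 counts allow in CD. In edgeR the FDR was 0.166, with an unadjusted p under 0.05. Among the other mice Ccl2 had 7 counts, each a lone read, in DEP2, DEP5, DEP14, DEP21 and in 3 of 4 REPOP10 mice. REPOP10 against CD gave an edgeR FDR of 0.683, also with an unadjusted p under 0.05. Ccl12 had a different distribution. It was not counted in any of the 23 depletion mice, the 14 mice of REPOP3, REPOP5 and REPOP7 or the 4 REPOP10 mice, and it was counted in 6 of the 12 mice of REPOP14, REPOP21 and REPOP60 (7 counts) and in 1 of 5 CD mice. In LPSREPOP each of the 4 mice held 1 read, and the 3 LPSCD mice held none. The pooled LPSREPOP level was 0.132 CPM (exact 95% Poisson interval 0.036 to 0.338), which is not separated from the 0.13 CPM that 3 counts allow in LPSCD, and edgeR gave FDR = 0.617. The overlapping antisense gene Gm17268 at Ccl2 had no count in any mouse.

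Ccl3 (MIP-1 alpha, ENSMUSG00000000982, chr11:83647844-83649355, minus strand) and Ccl4 (MIP-1 beta, ENSMUSG00000018930, chr11:83662584-83664683, plus strand) are chemokines that activated macrophages and microglia secrete. Ccl3 was counted 1, 1 and 2 times in LPSCD and 2, 0, 0 and 0 times in LPSREPOP, and in CD 1 mouse held 2 counts. The edgeR log2 fold change of LPSCD against CD was 1.5 (SE 1.09, FDR = 0.422). Outside the LPS groups Ccl3 was seen in 3 of 58 mice, and 7 of its 10 counts there came from DEP21 replicate 3. Ccl4 was seen in 1 LPSCD mouse (2 counts), in no LPSREPOP mouse and in 7 of the other 58 mice with 1 count each, none of them in CD. It was tested in DEP2 and DEP21 against CD only, where it was not called and the groups held too few counts for a fold change.

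Cxcl1 (KC, ENSMUSG00000029380, chr5:90891241-90893115, plus strand), a neutrophil attractant that binds Cxcr2, was counted 0, 2 and 3 times in LPSCD and in none of the 4 LPSREPOP mice. CD held 1 count in 5 mice. LPSCD against CD gave an edgeR log2 fold change of 2.48 (SE 1.15, FDR = 0.213, unadjusted p under 0.05). The pooled LPSCD level was 0.217 CPM (exact 95% Poisson interval 0.0704 to 0.506), and the interval reaches below the 0.0991 CPM that 3 counts allow in LPSREPOP (edgeR FDR = 0.617). The 11 counts of the other 58 mice came from 7 mice, with 4 counts in DEP21 replicate 3. Cxcl10 (IP-10, ENSMUSG00000034855, chr5:92346638-92348889, minus strand), the ligand of Cxcr3, was counted 0, 1 and 1 times in LPSCD and 2, 0, 0 and 1 times in LPSREPOP. It was seen in 15 of 58 mice without LPS (22 counts), including 4 counts in a REPOP7 mouse and 3 in a REPOP14 mouse. The LPSCD value against CD was 0.61 (SE 1.19, edgeR FDR = 0.791). Cxcl10 overlaps Art3 on the opposite strand, which had 2 to 16 counts per mouse, and as no source states that the counting used strand, reads of the 2 genes may be mixed.

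Il1b (ENSMUSG00000027398, chr2:129364570-129371139, minus strand), which encodes the interleukin-1 beta precursor, was detected in the most mice. It had at least 1 count in 42 of 65 mice and 63 counts in all, but 2 mice exceeded the floor. The counts were 1, 0, 3, 2 and 2 in CD, 1, 1 and 0 in LPSCD, 1, 5, 2 and 2 in LPSREPOP and 4, 0, 0 and 0 in REPOP60. Thus LPSCD lay within the range of CD, and the edgeR log2 fold change was -1.10 (FDR = 0.535). Against LPSCD, LPSREPOP differed by 1.74 (SE 0.94, edgeR FDR = 0.632). During depletion Il1b was counted in 11 of 23 mice, with at most 2 counts, and the pooled level was 0.075 CPM (exact 95% Poisson interval 0.041 to 0.126). In CD the mean over mice was 0.203 ± 0.143 CPM (SD, n = 5). The interval covers counting error only and the SD covers the spread between mice, so the 2 ranges cannot be compared. The log2 fold change of the pooled depletion groups against CD was -1.25 (SE 0.62, edgeR FDR = 0.775). In REPOP7, where 2 of 6 mice held 1 count each, it was -1.91 (SE 0.87, edgeR FDR = 0.999, unadjusted p under 0.05). All 4 mice of REPOP3, REPOP10 and REPOP21 were positive, with 1 or 2 counts. Il1b overlaps the antisense gene Il1bos, which had 0 to 6 counts per mouse and 150 in all, more than Il1b itself, so that antisense reads may be counted for Il1b and the reverse.

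Il6 (ENSMUSG00000025746, chr5:30013114-30019981, plus strand) and Tnf (ENSMUSG00000024401, chr17:35199381-35202007, minus strand) had the fewest counts. Il6, which drives the acute phase response through Stat3, had 8 counts in 8 mice, of which 1 was an LPSCD mouse and none a CD mouse. The other 7 were in DEP5, DEP10, REPOP5, REPOP7, REPOP14 and REPOP60. Tnf, which activates NF-kB through Tnfrsf1a, had 5 counts, 3 of them in DEP21 replicate 3, 1 in REPOP14 and 1 in LPSREPOP. The 3 LPSCD mice held no Tnf count, which allows up to 0.13 CPM, and the pooled level without LPS was 0.00866 CPM (exact 95% Poisson interval 0.00236 to 0.0222). A Tnf level in LPSCD several times that of the other mice was therefore not detectable at this depth.

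**Figure D4:**
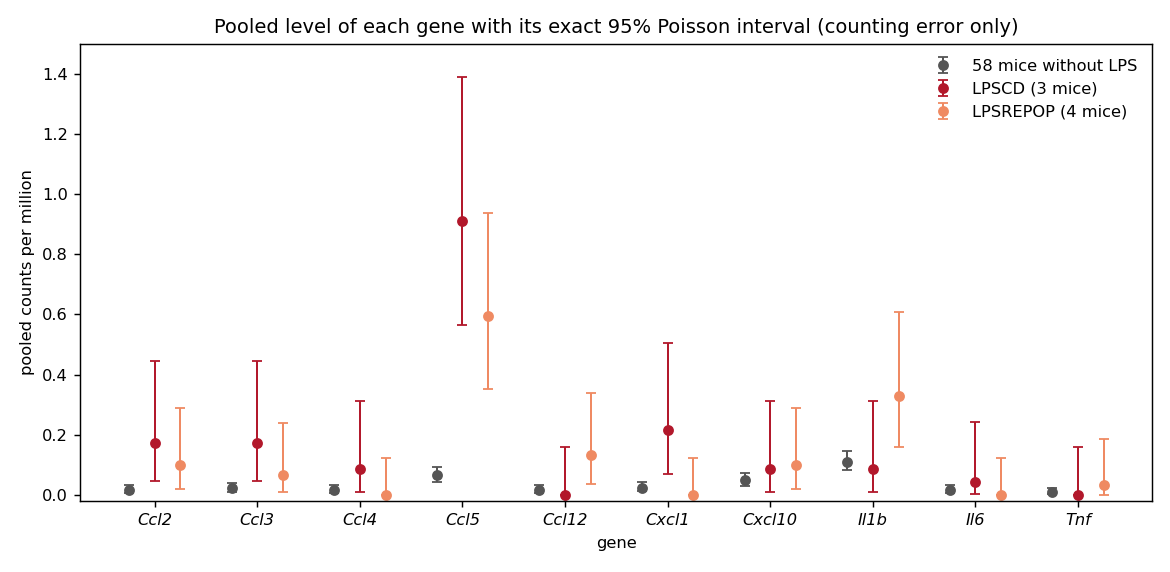
Pooled CPM of each gene in the 58 mice without LPS (grey), LPSCD (red) and LPSREPOP (orange), with exact 95% Poisson intervals that cover counting error only. For Ccl5 the intervals of both LPS groups lie above that of the other mice, and the LPS intervals of the other genes are wide, resting on 0 to 5 counts each except Il1b in LPSREPOP (10 counts).

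Depletion and repopulation were compared with CD to ask whether removing microglia, or their return, changed the retina. Members of the list were not called in any of these comparisons. In the depletion groups 3 members were tested in DEP5, DEP10, DEP14 and DEP21, 4 in DEP2 and 2 in DEP7, the remainder being counted in too few mice. In order of days on PLX5622, the genes that passed were 0.0334%, 0.0345%, 0.0375%, 0.0376%, 0.0335% and 0.0337% of those tested, which is 8 or 9 genes each, all lower. Mice were also blocked by replicate number, though no label states that same-numbered mice are pairs. In DEP2, DEP7, DEP10 and DEP14 every same-numbered mouse correlated with its CD mouse above 0.1. Replicate 1 is the re mouse in these groups, so number and title suffix partly coincide. With the block, edgeR called 44 genes in DEP7 (16 higher and 28 lower), 33 in DEP10 (8 higher and 25 lower) and 22 in DEP14 (2 higher and 20 lower), and again no member. No member had an edgeR p under 0.05 in these 6 comparisons. DESeq2 called none, but gave no adjusted p for Ccl4 and Ccl5 in DEP2. Pooled over the 6 depletion groups, 41 of 22767 genes passed (0.18%) and neither Ccl5 (-0.92, SE 0.82) nor Il1b (-1.25, SE 0.62) did in edgeR. In repopulation 2 or 3 members were tested in each group. The genes that passed were 0.0377% in REPOP3, 0.0336% in REPOP5 and 0.0594% in REPOP7, and 0.1% in these groups pooled. In REPOP10, REPOP14, REPOP21, REPOP60 and the last 3 pooled, no gene passed in edgeR (0.0%), with 1467, 537, 2274, 3730 and 698 genes at an unadjusted p under 0.05, and DESeq2 called 6, 0, 0, 1 and 0 genes. Same-numbered mice of REPOP3, REPOP5, REPOP10 and REPOP21 also correlated with CD by this measure. There the block gave 15 genes in REPOP3 (all lower), 23 in REPOP10 (3 higher and 20 lower) and 25 in REPOP21 (2 higher and 23 lower), with no member among them. Members at an unadjusted edgeR p under 0.05 were Ccl2 in REPOP10 and Il1b in REPOP7, given above, each tested through the group where it was higher. The pooled edgeR values in REPOP14, REPOP21 and REPOP60 were 1.17 for Ccl12 (SE 0.95), 0.69 for Ccl5 (SE 0.82) and -0.45 for Il1b (SE 0.67).

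One mouse fed PLX5622, DEP21 replicate 3, stood apart. It held 7 counts of Ccl3, 4 of Cxcl1, 3 of Tnf and 1 each of Ccl2 and Ccl4, whereas the other 3 DEP21 mice together held none of Ccl2, Ccl3, Cxcl1 or Tnf and 1 of Ccl4. In the remaining 57 mice without LPS, Ccl3 had 3 counts and Tnf 1. The CXC chemokines Cxcl2 and Cxcl3, looked up after this was seen, had 3 counts and 1 count in this mouse and none in any of the other 64 mice. Ccl5, Ccl12, Cxcl10, Il1b and Il6 had no count in it. Its library was the largest, with 8760443 counts, and its 173 counts of Nfkbia, 25 of Socs3 and 8 of Icam1 lay below the highest of the other mice without LPS (238, 51 and 12 counts). Without this mouse, DEP21 held 6 counts of the 10 genes in place of 22.

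The receptors of these ligands and the other genes of the pathway were examined from fixed lists, in which genes of few counts may likewise enter a test through the group where they are higher. Of 23 chemokine receptors, 14 were tested in the pooled depletion groups. Cx3cr1, the fractalkine receptor and a microglial marker, was called there and differed by -5.95 (SE 0.37, edgeR FDR = 7.23e-14). Bulk RNA does not tell fewer cells of a type from less RNA per cell. In REPOP3, REPOP5 and REPOP7 pooled, Cx3cr1 was called again (-5.36, SE 0.40, edgeR FDR = 6.28e-09). No receptor was called in a comparison of LPS mice. Ccr1, a receptor of Ccl3 and Ccl5 named after its values were seen, had 4, 6 and 10 counts in LPSCD and 0 in all CD mice (edgeR FDR = 0.0209). It had 5, 5, 11 and 0 counts in LPSREPOP and 1, 1, 1 and 2 in REPOP60 (edgeR FDR = 0.204). The neutrophil receptor Cxcr2, named likewise, stood at 0.131 CPM in LPSCD and 0.124 CPM in CD. Among 29 other chemokines none was called in any comparison, and the median of the 12 tested in LPSCD was 0.15 on the log2 scale against 0.01 over all genes. Cx3cl1, the ligand of Cx3cr1 and also named after its values were seen, was the most abundant of them, with 112 CPM in both CD and LPSCD.

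NF-kB and STAT3 are the transcription factors downstream of these cytokines. On the list of 14 of their response genes, 13 of 14 had a positive edgeR value in LPSCD against CD (median 0.85, against 0.01 over all genes), none was called, and 3 had an FDR under 0.05 (Icam1, Socs3 and Stat3). LPSCD replicate 3 stood apart in the latter pair, with 5.29, 10.4 and 24.6 CPM of Socs3 and 91.7, 129 and 304 CPM of Stat3 in the 3 LPSCD mice, against 1.98 to 4.12 CPM and 65.7 to 76.5 CPM in CD. In LPSREPOP against REPOP60, 11 of 14 were positive (median 0.57 against -0.01) and 1 rose by the study's threshold. This was Icam1, an adhesion molecule by which leukocytes attach to endothelium. Its counts were 14, 45 and 56 in LPSCD, 32, 60, 36 and 10 in LPSREPOP, 4, 1, 7, 7 and 9 in CD and 2, 5, 3 and 2 in REPOP60. The lowest LPS mouse, LPSREPOP replicate 4 (1.31 CPM), lay close to CD replicate 2M (1.21 CPM). How many other genes lay higher in all LPS mice than in both unchallenged groups was not counted. The log2 fold change was 3.44 (SE 0.47, edgeR FDR = 4.61e-05) in LPSREPOP and 2.76 (SE 0.47, edgeR FDR = 0.0108) in LPSCD. Among 9 receptors and inhibitors of Il1b, Il6 and Tnf, 8 were tested in LPSCD, 7 were positive and none was called (median 0.51). Tnfrsf1a, the main Tnf receptor, had an FDR under 0.05 there and, like the next genes, is named after its value was seen. Il6st, the shared signalling receptor of the Il6 family, was the most abundant with 152 CPM in LPSCD and 138 CPM in CD, and Il1rn, the receptor antagonist, had no count in either. Of 7 genes that process Il1b and Tnf, 6 were tested, all 6 were positive in LPSCD (median 1.19), 3 of 6 in LPSREPOP against REPOP60 (median 0.03), and none was called. Of 22 other cytokines 15 were tested in LPSCD (median 0.25) and none was called. Il33 was the most abundant of them, with 41.6 CPM in LPSCD and 40.3 CPM in CD, while Il10, Il12b, Il17a, Ifnb1 and Osm had no count in either.

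Marker genes of other cell types moved with the LPS groups as well, and their part in the Ccl5 values was not tested. The 16 microglial markers summed to 74.1 ± 8.23 CPM (SD, n = 5) in CD, 64.9 ± 4.71 CPM (SD, n = 4) in REPOP60, 142 ± 8.43 CPM (SD, n = 3) in LPSCD and 105 ± 19.2 CPM (SD, n = 4) in LPSREPOP. Of 15 tested, 13 were higher and 2 lower in LPSCD against CD (median 1.0). In LPSREPOP against REPOP60, 12 were higher and 3 lower (median 0.46). P2ry12 (-0.41 and -0.51) and Siglech (-0.37 and -1.42) were lower in both. By the threshold, 4 rose in LPSCD (C1qa, C1qb, C1qc and Laptm5) and 5 in LPSREPOP (the same 4 and Ctss). The calls of C1qa, C1qb and C1qc in LPSCD were lost without LPSCD replicate 3, and that of Laptm5 without any of 6 mice, CD replicates 2, 2M, 3 and 4 and LPSCD replicates 2 and 3, left out in turn. In LPSREPOP, leaving out 1 mouse ended the call of C1qa for 5 mice, of C1qc for 6 and of Laptm5 for 5, LPSREPOP replicates 1 and 3 among them each time. The LPSREPOP calls of Ctss, C1qc and Laptm5 were also lost with all 16 groups in 1 fit, that of C1qc with edgeR's filterByExpr and that of Laptm5 with the title suffix in the fit of all groups. In LPSCD, filterByExpr ended the calls of Laptm5, Eng and Pecam1, the replicate block and the fit of all groups with the title suffix that of Laptm5, and the use of re mice alone that of Pecam1. The 8 endothelial markers summed to 265 ± 3.07 CPM in CD and 345 ± 17.3 CPM in LPSCD, with 4 of 8 higher by the threshold (Cldn5, Eng, Pecam1 and Vwf), and to 262 ± 12.9 CPM in REPOP60 and 346 ± 16.9 CPM in LPSREPOP, with 5 of 8 higher (Cldn5, Egfl7, Eng, Tie1 and Vwf). In LPSCD, Cldn5, Eng and Pecam1 were no longer called without LPSCD replicate 3, nor Eng and Pecam1 without CD replicate 2, 3 or 4 or Pecam1 without LPSCD replicate 2, and in LPSREPOP Eng was not without LPSREPOP replicate 2 and Egfl7 not without REPOP60 replicate 1, 2 or 4. With the title suffix as a covariate, none of the 8 microglial and endothelial calls in LPSCD was kept. The most abundant, Kdr, stood at 211 CPM in CD and 180 CPM in LPSCD. The 9 neutrophil markers summed to 2.56 ± 1.72 CPM in CD, 4.26 ± 1.49 CPM in LPSCD, 1.8 ± 0.267 CPM in REPOP60 and 7.59 ± 6.25 CPM in LPSREPOP. In LPSCD against CD all 7 tested were higher and none was called (median 0.36). There S100a9 differed by 0.25 (SE 0.90, edgeR FDR = 0.891), and CD replicate 3 held 26 counts of it. In LPSREPOP against REPOP60, 5 of 8 tested were higher and 3 lower. S100a9 had 16, 6, 43 and 4 counts in LPSREPOP and 2, 0, 2 and 0 in REPOP60 and was called (edgeR FDR = 0.00337), and S100a8 had 11, 2, 22 and 2 against 0 in all REPOP60 mice (edgeR FDR = 0.00525). S100a8 entered the test through LPSREPOP alone, so that its p is no support for a difference, and DESeq2 gave it no adjusted p. Both calls were lost without LPSREPOP replicate 1 or 3 or any 1 of the 4 REPOP60 mice, and that of S100a9 also with DESeq2 and with all 16 groups in 1 fit. The most abundant was Csf3r, Elane had no count in CD, REPOP60 and LPSCD, and Ly6g had none in LPSREPOP. T cells and NK cells are a known source of Ccl5, and their 8 markers summed to 0.619 ± 0.214 CPM in CD, 0.907 ± 0.327 CPM in LPSCD, 0.83 ± 0.421 CPM in REPOP60 and 0.959 ± 0.352 CPM in LPSREPOP. None was called, Cd4 was the most abundant in CD, REPOP60 and LPSCD (0.346, 0.499 and 0.565 CPM), and the defining genes Cd3d, Cd3e and Cd3g had no count in any LPS mouse. Cd8a, a marker of cytotoxic T cells named after its values were seen, was the most abundant in LPSREPOP, with 4, 6, 7 and 2 counts (0.628 ± 0.292 CPM, SD, n = 4) against 0, 3, 3 and 1 in REPOP60 (0.232 ± 0.198 CPM, SD, n = 4) and 0 to 3 in CD. Its log2 fold change against REPOP60 was 1.35 (SE 0.66, edgeR FDR = 0.358). Of the 3 T cell and NK cell markers tested in that comparison, 1 was higher and 2 were lower (median -0.73). Cd4 had 1, 4, 2 and 2 counts in LPSREPOP against 3, 6, 2 and 4 in REPOP60. The 9 monocyte and macrophage markers summed to 17.7 ± 2.88 CPM in CD, 14.6 ± 2.32 CPM in LPSCD, 16.4 ± 1.88 CPM in REPOP60 and 18.4 ± 4.17 CPM in LPSREPOP, with none called and Lyve1 the most abundant (14.4 CPM in CD and 10.6 CPM in LPSCD). Of 7 tested in LPSCD against CD, 5 were higher and 2 lower (median log2 fold change 1.3). In LPSREPOP against REPOP60, 5 of 7 were higher and 2 lower (median 0.68). Markers of few counts may have entered these tests through the group where they were higher. The 8 Muller glia and astrocyte markers, led by Glul, summed to 3560 ± 90.0 CPM in CD and 3520 ± 456 CPM in LPSCD, and the rod and cone markers to 50200 ± 1790 CPM in LPSCD, with none called. The 5 erythrocyte markers summed to 6.83 ± 3.06 CPM in CD, 2.35 ± 2.15 CPM in LPSCD and 1.29 ± 1.02 CPM in LPSREPOP, and Hbb-bs, the most abundant, fell in LPSREPOP against REPOP60 (edgeR FDR = 0.00108), a call lost without LPSREPOP replicate 1 or 3 or REPOP60 replicate 2, 3 or 4, and with all 16 groups in 1 fit, with or without the title suffix.

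**Figure D5:**
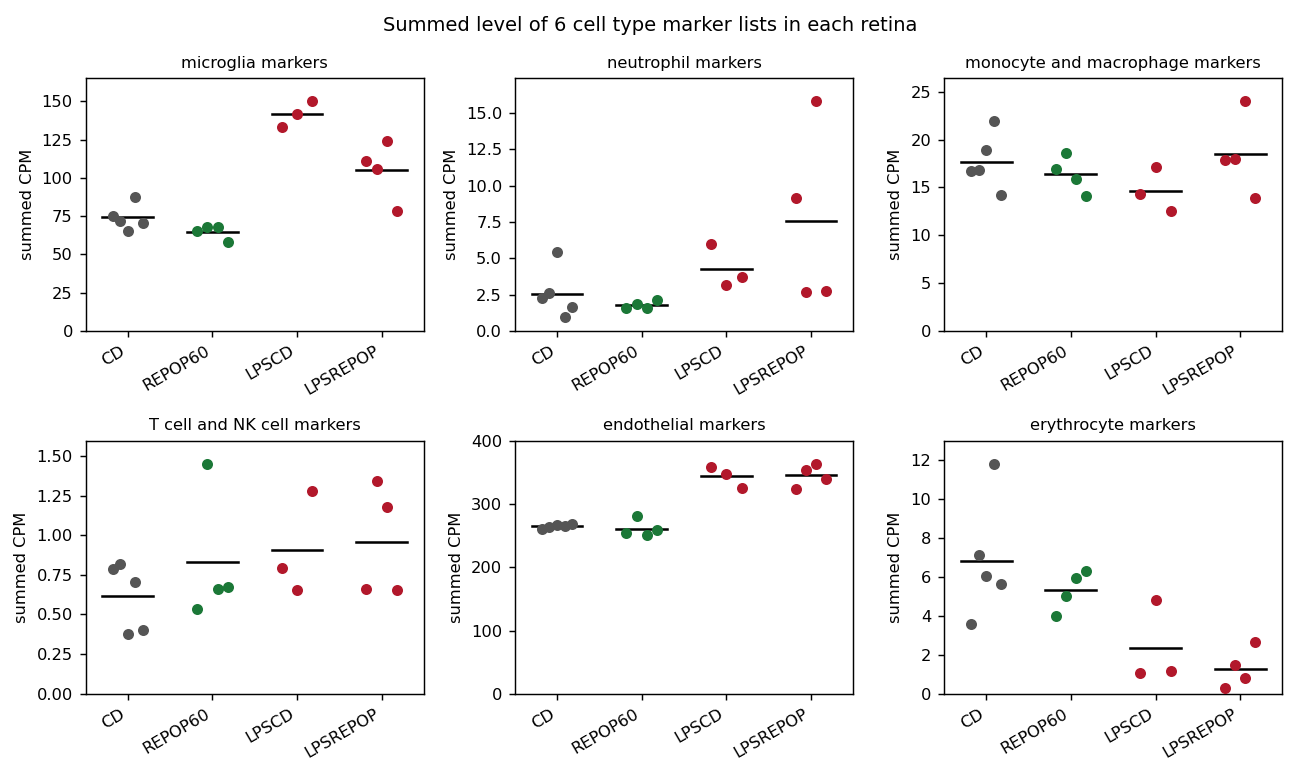
Summed CPM of 6 marker lists in each mouse of CD, REPOP60, LPSCD and LPSREPOP (points), with group means (bars). The microglial sums of LPSCD (133 to 150) and the endothelial sums of both LPS groups (325 to 364) lie above those of CD and REPOP60, and the T cell and NK cell sums overlap between all 4 groups.

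Ccl5 was the only member with a mean above 3 counts in a group (7 in LPSCD), and so the only one whose profile could be set beside those of other genes. Over the 15 groups other than CD, the root mean square difference of log2((CPM + 0.5) / (CD CPM + 0.5)) to Ccl5 was smallest for 2600006K01Rik (0.147), Tgfbr2 (0.152), a receptor of TGF-beta, and Col27a1 (0.16), a fibrillar collagen, of 18914 genes compared. Tgfbr2 stood at 5.86 CPM in CD, 11.9 CPM in LPSCD, 6.52 CPM in REPOP60 and 11.3 CPM in LPSREPOP, and Col27a1 at 58.6, 118, 66 and 94.4 CPM in the same order. At the low level of Ccl5, the added 0.5 CPM shrinks its changes, and likeness in this measure says nothing of shared control.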

How the data were processed

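Retinal poly-A RNA of 65 mice was sequenced on BGISEQ-500 as 50-base single-end reads. The authors aligned the reads with HISAT2 to mm10 and deposited HTSeq counts per gene and StringTie FPKM values per gene. Versions and strandedness are not given in the sources used here. Library totals were 5106429 to 8760443 counts, so that 3 counts, the floor used here, are worth 0.342 to 0.587 CPM.

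Groups were compared with edgeR 4.0.16 (R 4.3.3), quasi-likelihood test, TMM scaling and group as the only factor, on genes with at least 1 count in at least 50% of the mice of either group. The thresholds were FDR under 0.01 (Benjamini-Hochberg) and an absolute log2 fold change above 1, and SEs were derived from the F statistic. On simulated data modelled on LPSCD against CD (23594 genes), 98.5% of 200 changed genes were recovered. Recovery of genes with counts as low as those of the members was not tested, so this percentage says nothing of the power to detect a change in them. Pooled levels have exact 95% Poisson intervals. FPKM served for levels per length and for exact permutation tests of Ccl5 in 3 comparisons. DESeq2 1.42.0, the likelihood ratio test, other filters and scalings, the title suffix, a replicate block and leaving out each mouse were the alternatives. The study used a batch term whose batches the sources used here do not name.

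The 10 genes and the gene lists were chosen with earlier results of these data known. All 10 were named, together with up to 5 called genes of each list and comparison, the most abundant gene of each cell type list and, for genes above 3 counts in a group mean, the 3 genes of most similar profile. A few genes that this rule names are not reported here. Genes outside this rule are said to be named after their values were seen. Same-numbered mice correlated above 0.1 in every pair for DEP2, DEP7, DEP10, DEP14, REPOP3, REPOP5, REPOP10 and REPOP21 against CD. Coordinates are GRCm38 (GENCODE M21).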

Additional observations from a re-analysis of the deposited data

Results flagged for a closer look

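In groups of at least 4 mice with a member above 3 counts in some mouse, the highest mouse was compared with the rest of its group by Dixon's test. This covered 6 cases and 3 were marked. The usual chance rate of about 1 in 20 does not apply, because only cases with a high mouse were tested and in the marked cases the other mice were all at 0, so that the marks are a description. Ccl3 was high in DEP21 replicate 3 with 7 counts, against 0 in the other 3 mice. Cxcl1 was high in the same mouse with 4 counts, against 0 in the others. Il1b was high in REPOP60 replicate 1 with 4 counts, against 0 in the other 3 mice. What set these mice apart was not tested.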

How the results depend on the processing

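None of the 10 genes was called in any of the 20 comparisons by edgeR's quasi-likelihood test, and this count stayed at 0 in 344 combinations of a comparison and an alternative and moved in 4. The 4 all concern Ccl5 in LPSCD against CD, where 1 member was called with all 16 groups in one fit, with the likelihood ratio test, without a gene filter, and at an FDR under 0.05 with no fold threshold. With the replicate number as a block, 0 members were called in every comparison, and the block changed no member's call. Over all genes it moved the count of calls by over 1.5 times in 12 comparisons. In those where not every same-numbered pair correlated above 0.1, it called 14 genes in DEP5, 21 in DEP21, 7 in REPOP7, 2 in REPOP14, 62 in REPOP60 and 96 in LPSCD. With it, the Ccl5 value in LPSCD against CD was 3.22 (edgeR FDR = 0.082). Leaving out each mouse in turn left the count of called members at 0, with Ccl5 between 2.85 and 3.69 and its FDR between 0.0274 and 0.157. DESeq2 gave Ccl5 a value of 3.59 with no adjusted p, and likewise none for the other members tested there. Of the 68 fitted values of a member in a comparison, 10 changed sign under some alternative, none of them called in any. With 1 mouse left out, Ccl2 in LPSREPOP against LPSCD ranged from -1.65 to 0.49, and Cxcl10 there from -0.78 to 0.53. Ccl5 ranged from -0.69 to 1.01 in DEP10 and from -0.64 to 0.63 in REPOP10, turning negative without DEP10 replicate 1 and REPOP10 replicate 4. Cxcl10 ranged from -0.01 to 0.75 in DEP14 and from -0.03 to 0.73 in DEP2. Il1b ranged from -0.64 to 0.01 in REPOP10, from -0.51 to 0.14 in REPOP21 and from -0.63 to 0.04 in REPOP5. Under the replicate block, Ccl5 in REPOP10 was -0.0, and Cxcl10 was -0.05 in DEP5 and -0.05 in LPSREPOP against LPSCD. The causes were not tested. The title suffix could not be fitted in the LPSREPOP comparisons, where all mice are re, and edgeR's filterByExpr left no value for Ccl5 in LPSCD against CD. Depth limits every value, as most are counts of 0 or 1. In a count of mice, detection depends on the limit chosen, since Ccl5 was seen in 27 mice at 1 count or more and in 4 above 3 counts. The FPKM comparison of Ccl5 and the sums without DEP21 replicate 3 were added after seeing the data.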
